A study of Mus musculus with 3 samples.

Results

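The comparison described here is that of the heart after abdominal aortic constriction (AAC) with the heart after sham operation, over the genes of the autosomes. Members were chosen by 3 conditions. The probe names exactly 1 gene, the gene does not lie on the X or Y chromosome, and the higher of its AAC and sham values lies above the median of that array. This kept 9660 of the 19505 genes named on the arrays. Of the others, 9015 autosomal genes lay below that level and 830 genes lay on the sex chromosomes (798 on X and 32 on Y). A gene with several probes was taken as their mean, and 1 gene kept, Pisd-ps3, has no placed chromosome.

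Total RNA from the hearts of C57BL/6 mice was hybridised to Affymetrix arrays, 1 array for each of 3 groups. The AAC group had the abdominal aorta tied with a silk ligature around a needle that was then withdrawn, which leaves a narrowed vessel, and received saline for 12 weeks. The sham group had the same operation with the silk taken out before it was tied, and also received saline for 12 weeks. Another group (AAC + DAPA) had the ligature and was given dapagliflozin, an inhibitor of glucose reabsorption in the kidney, at 25 mg/kg/d in drinking water for 12 weeks. All mice are labelled as males aged 10 weeks at operation, and no group carries a transgene. The sources used here do not say whether an array holds RNA of 1 mouse or of several, or at what hour hearts were taken.

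Ligation of the abdominal aorta raises the pressure against which the left ventricle ejects. Under such a load cardiac muscle cells enlarge, switch on natriuretic peptides and other genes of the fetal heart, and shift their fuel use away from fatty acids, while fibroblasts lay down matrix and monocytes enter the wall. The adult heart also runs a strong circadian clock, in which the activators ARNTL (BMAL1) and CLOCK drive their own repressors of the PER, CRY and NR1D families, so that activators and repressors peak at opposite hours of the day.

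The tissue label was met by the cardiomyocyte genes, which were among the brightest probes of both arrays. Myh6, the fast myosin heavy chain of the mouse ventricle, had log2 values of 19.05 in AAC and 19.09 in sham, and Tnnt2, cardiac troponin T, had 19.49 and 19.46 in the same order. Genes of the Y chromosome went against the labels, which call all mice male. Eif2s3y, a translation factor gene of the Y chromosome, had 11.71 on the AAC array, 2.72 on the AAC + DAPA array and 2.5 on the sham array. Uty, a histone demethylase gene of the same chromosome, had 10.65 in AAC and 3.09 in sham. All 22 genes of the Y chromosome that passed the level condition were higher in AAC, and their median difference was 3.0 (log2). Hence a difference of sex cannot be told apart from the operation for any autosomal gene below. Nor can it be told apart from the drug between the AAC and AAC + DAPA arrays. Entpd4, which varies in copy number within stocks of C57BL/6 mice, had 15.3 in AAC, 14.5 in AAC + DAPA and 13.9 in sham, whereas Ide, another such gene, had 13.10, 13.09 and 13.09. The part of sex and of stock in the differences was not tested.

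Differences are given as the AAC value minus the sham value on the log2 scale. A gene is called higher or lower when the difference amounts to at least 1.5-fold, that is 0.585 on the log2 scale, in that direction. With 1 array a group there is no error between hearts and no test, so these words describe 2 arrays. Of the 9660 genes, 671 (6.95%) were higher and 783 (8.11%) were lower in AAC, and 8206 (84.9%) lay between. These percentages are the background for every count of a gene list below. The median difference was 0.00, the middle 95% of genes lay between -0.93 and 0.96, and 1736 genes (18%) had the same value on both arrays to 2 decimals. Past 2-fold there were 227 higher and 196 lower genes, past 4-fold 36 and 31, and past 8-fold 10 and 12. The share called changed little with level. With the genes split by mean level into 4 equal classes, lowest first, 7.12%, 6.83%, 6.79% and 7.04% were higher and 6.29%, 8.82%, 8.90% and 8.41% were lower.

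Spreads measured within this pair of arrays describe a part of the technical differences. With no replicate arrays, they leave out errors that the probes of an array share. Between probes for the same gene the difference varied with an SD of 0.283 (40 autosomal genes with several probes). Over 1420 autosomal olfactory, vomeronasal and trace amine receptor genes, which are tied to sensory neurons, the SD of the difference was 0.279, with 2.61% of them higher and 3.03% lower. These genes had median values of 3.96 in AAC and 3.97 in sham, below the level condition for most. Of the 143 that passed it, 5 (3.5%) were higher and 11 (7.69%) lower, the latter share close to that of all genes kept. The level condition itself mattered at its edge. Among 186 genes within 0.1 above it, 16 were called, and among 238 genes within 0.1 below it, 20 would have been. In all, 227 higher and 125 lower autosomal genes lay under it and are not described. Of the 671 higher genes, 97 passed it through the AAC array alone, where they are high, and of the 783 lower genes, 77 passed through the sham array alone. Such genes had to differ in that direction, though not by as much as 1.5-fold. Many of those that weigh in a count below are named as such.

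**Figure D1:**
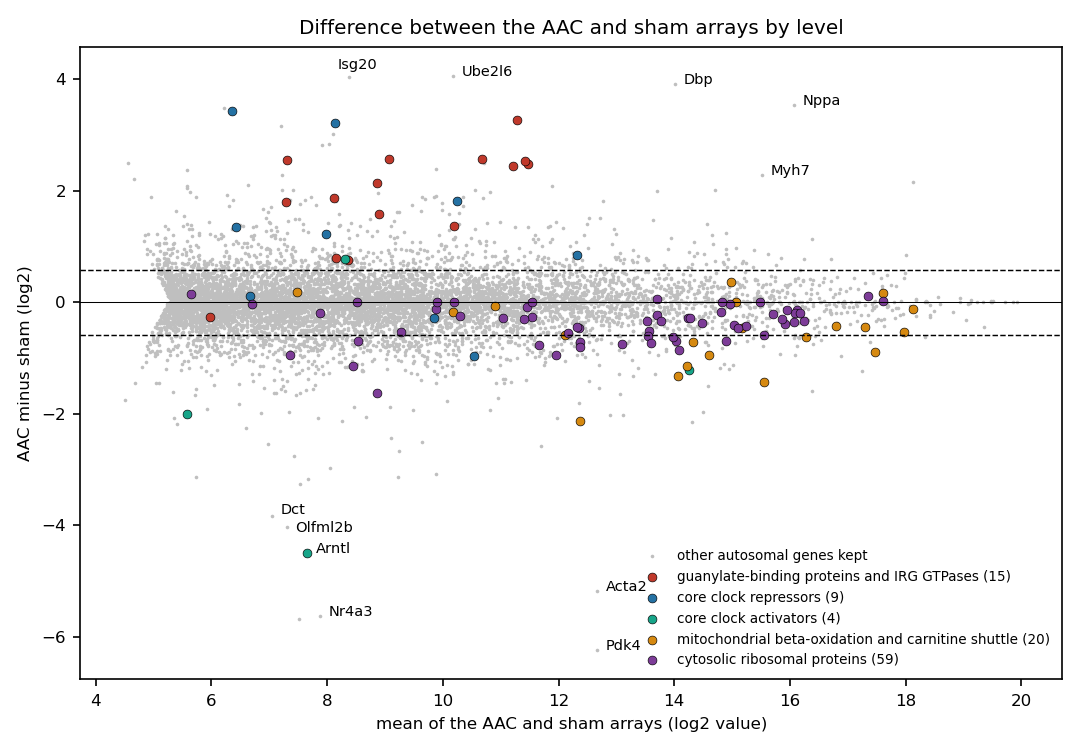
Difference between the AAC and sham arrays (AAC minus sham, log2) against the mean of both arrays (log2 value) for the 9660 autosomal genes kept, with 1 point per gene, 5 gene lists in colour and dashed lines at 1.5-fold. The points of guanylate-binding proteins and of clock repressors lie mostly above the upper line, while those of beta-oxidation and ribosomal proteins lie mostly under 0.

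The 20 largest rises held interferon-induced genes, clock genes, leukocyte genes and a natriuretic peptide gene, beside others such as Pde1c and Scgb1c1. Ube2l6, the enzyme that carries ISG15 to its targets, had log2 values of 12.20 in AAC, 10.07 in AAC + DAPA and 8.14 in sham, 16.7-fold higher in AAC than in sham. Isg20, an antiviral exonuclease, had 10.39 in AAC, 7.36 in AAC + DAPA and 6.36 in sham, 16.3-fold higher in AAC. Dbp, a transcription factor of the PAR-bZIP family and of the clock output, had 15.98 in AAC, 16.04 in AAC + DAPA and 12.06 in sham. The AAC + DAPA array thus lay nearer to sham for Isg20 and beside AAC for Dbp. Ccl12, a chemokine that draws monocytes, had 7.97 in AAC and 4.48 in sham (11.2-fold), and Ccr2, the receptor for such chemokines, 9.46 and 6.62 (7.16-fold). Cd274, which encodes the inhibitory ligand PD-L1, was 8.94-fold higher (8.79 in AAC and 5.63 in sham). Scgb1c1, a secretoglobin, was 8.06-fold higher and had 9.61 in AAC, 10.29 in AAC + DAPA and 6.60 in sham.

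The largest falls were of another kind. Pdk4, the kinase that shuts pyruvate dehydrogenase when fatty acids are burned, fell most, to 9.54 in AAC, against 13.78 in AAC + DAPA and 15.78 in sham, a 75.6-fold difference between AAC and sham. Nr4a3, an inducible orphan nuclear receptor, had 5.06 in AAC, 4.54 in AAC + DAPA and 10.69 in sham, 49.5-fold lower in AAC. Acta2, smooth muscle alpha actin, had 10.08 in AAC, 12.13 in AAC + DAPA and 15.25 in sham, 36-fold lower in AAC. For each of these genes sham was the high array, with both ligated groups below it. Arntl, the clock activator, was 22.5-fold lower, Olfml2b, a matrix protein, 16.2-fold lower and Dct, an enzyme of melanin synthesis, 14.3-fold lower in AAC. An unnamed RIKEN gene, 2210407C18Rik, had 4.68 in AAC and 10.36 in sham. Lrat, which esterifies retinol, had 4.17 in AAC and 7.31 in sham, and Alpl, tissue alkaline phosphatase, had 6.06 and 8.81 in the same order. Nr4a3, Olfml2b, Dct, Lrat and the RIKEN gene passed the level condition through the sham array alone.

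**Figure D2:**
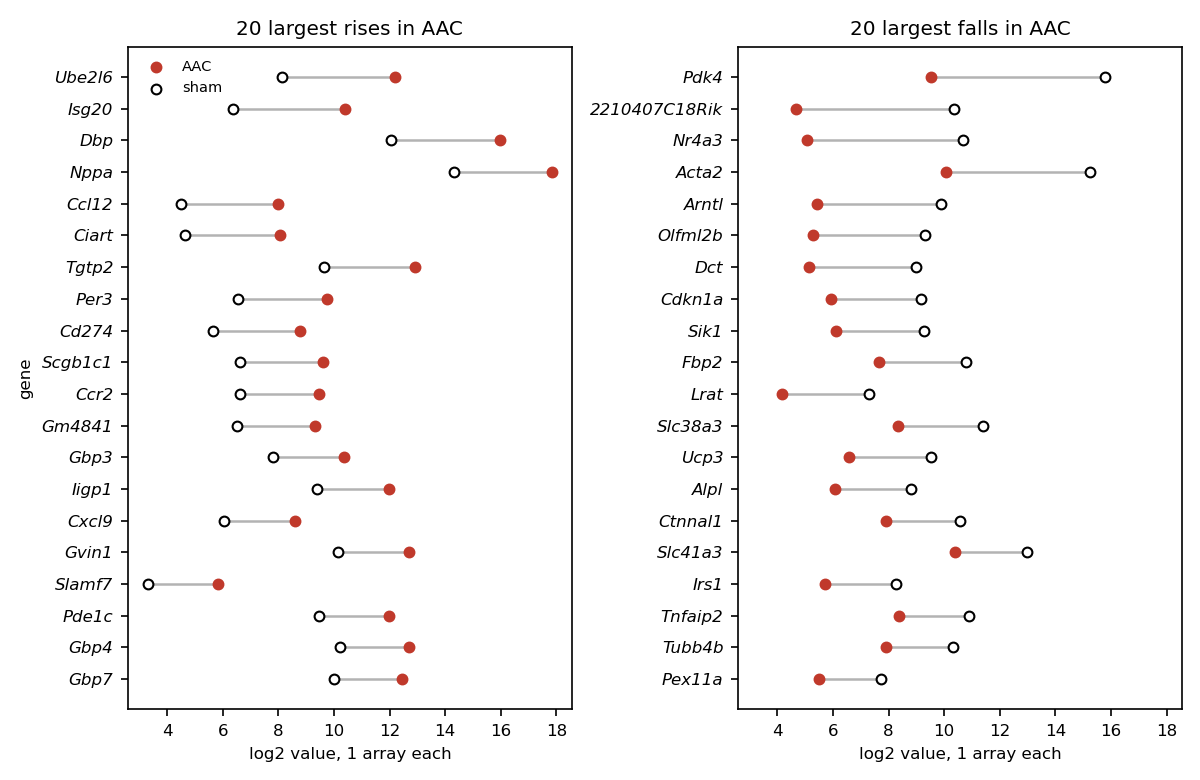
Log2 values on the AAC array (filled points) and the sham array (open points) for the 20 genes with the largest rises and the 20 with the largest falls in AAC, 1 array each. The rises are led by Ube2l6 (12.20 in AAC and 8.14 in sham), and the falls reach further, with Pdk4 at 9.54 in AAC and 15.78 in sham.

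Over all called genes the third array was split. For 341 of the 671 higher genes the AAC + DAPA array lay nearer to sham and for 326 nearer to AAC, and for the 783 lower genes these numbers were 389 and 389. AAC + DAPA was set beside genes chosen for their difference between AAC and sham, so its place among them is given below as a description of single genes and counts. The AAC + DAPA and sham arrays were also alike in low Eif2s3y (2.72 and 2.5, against 11.71 in AAC). Where AAC + DAPA lies nearer to sham below, the drug cannot be told apart from that likeness.

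The natriuretic peptide and fetal programme genes moved in both directions. Of 15 kept, 4 were higher and 3 lower, and the median was 0.00. Nppa, which encodes atrial natriuretic peptide, had 17.83 in AAC, 19.37 in AAC + DAPA and 14.30 in sham, 11.6-fold higher in AAC than in sham. Myh7, the slow beta myosin heavy chain of the fetal mouse ventricle, had 16.65 in AAC, 16.76 in AAC + DAPA and 14.37 in sham, 4.86-fold higher in AAC. Ankrd1, a stretch-responsive titin-binding repressor, had 19.20 in AAC, 19.62 in AAC + DAPA and 17.05 in sham, 4.44-fold higher in AAC. In all 3 genes both ligated groups stood above sham. Nppb, which encodes B-type natriuretic peptide, was only 1.77-fold higher, with 13.79 in AAC and 12.97 in sham. Acta1, skeletal alpha actin, another gene of the fetal heart, went the other way and had 10.35 in AAC, 13.34 in AAC + DAPA and 11.72 in sham. Rcan1, a target and inhibitor of calcineurin, was 4.23-fold lower in AAC (10.93 against 13.01 in sham). Actc1, cardiac alpha actin, was 1.54-fold lower.

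Most sarcomere genes were alike on both arrays. Of 25 kept, 4 were higher and 1 lower with a median of 0.03. Besides Myh7 the higher ones were Myom2, an M-band protein (15.71 in AAC and 13.69 in sham, 4.06-fold), Tcap, the titin cap (14.70 and 12.70 in the same order, 4.0-fold) and Mybpc3, cardiac myosin binding protein C (17.10 and 16.32, 1.72-fold). Calcium handling had 20 genes kept with 1 higher and 1 lower. Atp2a2, the calcium pump of the sarcoplasmic reticulum, had 19.71 on each array, and Pln, its inhibitor, 19.48 on each. Jph2, which ties that reticulum to the cell membrane, had 10.92 in AAC and 11.69 in sham.

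Among potassium channel genes, 24 of 87 autosomal ones passed the level condition, 2 were higher and none was lower at 1.5-fold. Kcnip2, the subunit that gives the transient outward current, had 13.47 in AAC, 13.33 in AAC + DAPA and 11.96 in sham, 2.85-fold higher in AAC. Kcnj11, the pore of the ATP-gated channel, was 1.67-fold higher. Of 15 junction genes Dsp (desmoplakin, 15.37 in AAC and 14.41 in sham) and Dsc2 (desmocollin, 10.94 and 10.08) were higher and Jup (plakoglobin, 10.77 and 11.48) was lower. The connexin gene Gja1 had 16.90 in AAC and 16.52 in sham, under 1.5-fold.

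Clock repressors and clock activators differed in opposite directions for most genes kept. Of 9 repressor genes kept, 6 were higher and 1 lower with a median difference of 1.23. Of 4 activator genes kept, 3 were lower and 1 higher with a median of -1.62, which was -1.18 over all 6 activators with no level condition. Ciart and the output gene Hlf passed that condition through the AAC array alone, and Npas2 through the sham array alone. Ciart, a repressor that binds the ARNTL complex, had 8.07 in AAC, 9.36 in AAC + DAPA and 4.65 in sham, 10.7-fold higher in AAC. Per3 had 9.74 in AAC, 9.67 in AAC + DAPA and 6.53 in sham, 9.25-fold higher in AAC. For both genes the 2 ligated groups stood far above sham, and for Ciart AAC + DAPA also stood above AAC. The hour at which hearts were taken is not known and cannot be told apart from the operation. The other higher repressors were Bhlhe41 (3.53-fold), Per1 (2.53-fold), Cry2 (2.35-fold) and Nr1d2 (1.80-fold). Bhlhe40 was 1.96-fold lower, and Nr1d1 had 9.70 in AAC and 9.98 in sham.

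Arntl had 5.41 in AAC, 6.34 in AAC + DAPA and 9.90 in sham. Npas2, a partner of ARNTL like CLOCK, had 4.58 in AAC, 5.46 in AAC + DAPA and 6.59 in sham, and Clock itself 13.65, 13.76 and 14.87. All 3 were highest in sham. Rora, a receptor that activates Arntl, was the exception and was 1.71-fold higher in AAC. Of 7 output genes, 5 were higher and 1 lower with a median of 0.84. After Dbp came Tspan4, a tetraspanin (8.23 in AAC and 6.22 in sham, 4.03-fold), Wee1, a kinase that delays mitosis (10.75 and 9.62, 2.19-fold), and Hlf, another PAR-bZIP factor (5.71 and 4.87, 1.79-fold). Nfil3, the repressor that competes with these factors for the same sites, was 1.83-fold lower. For all 6 higher repressors, all 5 higher output genes and all 3 lower activators, the AAC + DAPA array lay nearer to AAC than to sham.

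Promoters of 3 clock genes are shown as examples of the letters by which clock factors are known to bind, and were picked for holding them. Each window runs from 250 bases before to 50 bases after a gene start in the RefSeq table for build GRCm38.p6, 5′ to 3′ on the strand of the gene, and was searched on both strands. Capitals mark an E-box (CACGTG) in Ciart, a D-box (TTATGTAA) in Per3 and a response element of the ROR and NR1D receptors (RORE, the letters AA, any base, T, any base, GGTCA) in Arntl. Ciart lies at chr3:95882179-95882478 on the minus strand, Per3 at chr4:151044616-151044915 on the minus strand and Arntl at chr7:113207261-113207560 on the plus strand.
Ciart: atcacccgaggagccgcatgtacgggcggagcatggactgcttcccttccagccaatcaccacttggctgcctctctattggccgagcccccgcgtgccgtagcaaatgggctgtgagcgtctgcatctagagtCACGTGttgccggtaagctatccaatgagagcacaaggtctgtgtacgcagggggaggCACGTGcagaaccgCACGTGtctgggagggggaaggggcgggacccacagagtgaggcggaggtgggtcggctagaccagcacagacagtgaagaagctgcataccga
Per3: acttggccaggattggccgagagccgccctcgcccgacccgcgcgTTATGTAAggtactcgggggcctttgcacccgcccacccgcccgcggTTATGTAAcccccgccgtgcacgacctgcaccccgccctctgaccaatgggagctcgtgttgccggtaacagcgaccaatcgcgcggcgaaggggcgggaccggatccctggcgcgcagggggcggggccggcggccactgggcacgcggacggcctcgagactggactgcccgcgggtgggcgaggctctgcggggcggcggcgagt
Arntl: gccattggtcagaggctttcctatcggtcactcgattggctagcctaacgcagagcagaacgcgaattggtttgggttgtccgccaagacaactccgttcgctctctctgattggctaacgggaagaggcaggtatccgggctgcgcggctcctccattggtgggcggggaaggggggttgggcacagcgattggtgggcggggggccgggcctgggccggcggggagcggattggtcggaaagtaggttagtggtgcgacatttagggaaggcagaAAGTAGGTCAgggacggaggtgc
The Ciart window held 3 E-boxes but no D-box, the Per3 window 2 D-boxes but no E-box, and this Arntl window 1 RORE, while the other window of Arntl held none. Dbp, among the 20 largest rises like Ciart and Per3, held no E-box in its window. Among the 27025 genes of the table, 8.09% held an E-box, 1.11% a D-box and 0.714% a RORE in at least 1 window of this length. Of the repressor genes with a window, 4 of 8 held an E-box. A match of letters is a description of the window and says nothing on binding in these hearts.

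Among inducible genes that follow cAMP, calcium or stress signals, several large differences were falls. Of 18 immediate early genes kept, 5 were lower, 2 higher and 11 within 1.5-fold, with a median of -0.12, and Nr4a3 and Fosl2 passed the level condition through the sham array alone. After Nr4a3 came Egr1, a zinc finger factor (7.04 in AAC and 8.53 in sham), Nr4a1 (5.74 and 7.21), Jun (7.99 and 9.22) and Fosl2 (5.24 and 6.23). Fos itself was below the level condition, with 3.77 on each array. Klf6, an injury-induced factor, was 2.20-fold higher and Ier3, an early response gene, 1.65-fold higher. In the list of CREB genes, kinases of the SIK family and cAMP-responsive genes, 5 of 10 were lower and none was higher, with a median of -0.82. Sik1, a kinase induced by cAMP that holds CREB coactivators in the cytoplasm, had 6.09 in AAC, 5.86 in AAC + DAPA and 9.26 in sham, 9.0-fold lower in AAC. Ppargc1a, the coactivator PGC-1alpha that drives mitochondrial genes, had 15.58 in AAC, 15.47 in AAC + DAPA and 17.18 in sham, 3.03-fold lower. For these 2 genes both ligated groups lay together under sham.

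Genes of the Pde symbol root are mostly phosphodiesterases, the enzymes that break down cyclic nucleotides. They had the highest share of lower genes of all 102 groups with a common symbol root and at least 10 genes kept. Of 15 such genes, 7 (46.7%) were lower and 1 was higher. Pde4a had 9.15 in AAC and 10.29 in sham, and Pde4b had 9.98 and 11.09, and both were also counted in the CREB list. Pde7b, Pde3b, Pde8a, Pde2a and Pde9a were lower by 1.52-fold to 1.87-fold, and Pde9a passed the level condition through the sham array alone. Pde1c, which is activated by calcium and calmodulin, was the higher one, with 11.96 in AAC, 10.78 in AAC + DAPA and 9.47 in sham (5.62-fold). Among 17 genes of adrenergic receptors and cAMP signalling, 5 were lower and 2 higher. Grk5, the kinase that silences beta receptors, had 9.84 in AAC, 10.10 in AAC + DAPA and 11.78 in sham, 3.84-fold lower in AAC. Adra1b, an alpha receptor, was 2.91-fold lower and Rgs7, which shortens G protein signals, 4.20-fold lower. Rgs7 passed the level condition through the sham array alone. Rgs5, a regulator found in pericytes, was 1.67-fold higher.

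Targets of glucocorticoids and FOXO factors were mixed, with 3 of 23 higher and 5 lower. Cdkn1a, the cell cycle inhibitor p21, had 5.91 in AAC, 6.18 in AAC + DAPA and 9.17 in sham, 9.58-fold lower in AAC. It was the only one of 11 p53 targets kept that was called. Pik3ip1, an inhibitor of phosphoinositide kinase, had 10.81 in AAC and 9.16 in sham (3.14-fold higher), and Txnip, a sensor of glucose, was 1.74-fold higher. Sgk1, Zbtb16 and Trim63, the last a ubiquitin ligase of wasting muscle, were 1.57-fold to 1.67-fold lower.

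Genes of fatty acid oxidation were called in the lower direction alone. Of 20 genes of mitochondrial beta-oxidation and the carnitine shuttle, 9 (45.0%) were lower and none was higher, against 8.11% and 6.95% of all genes, and the median difference was -0.50. Cpt2, which frees acyl groups from carnitine inside mitochondria, had 11.32 in AAC, 12.50 in AAC + DAPA and 13.44 in sham, 4.35-fold lower in AAC. Acadvl, the dehydrogenase for very long chains, had 14.84 in AAC, 15.66 in AAC + DAPA and 16.27 in sham, 2.69-fold lower. Crat, carnitine acetyltransferase, was 2.5-fold lower and Slc25a20, the carnitine carrier, 2.22-fold lower. These genes span entry, transport and the first oxidation step. In the list for uptake and activation of fatty acids 3 of 12 were lower and 1 was higher. The lower ones were Dbi, the acyl-CoA binding protein (12.10 in AAC and 14.13 in sham), Lipe, hormone-sensitive lipase (6.47 and 8.06), and Pnpla2, the first lipase of stored triglyceride (13.53 and 14.12). The higher one was Vldlr, with 14.89 in AAC and 14.21 in sham (1.60-fold). Of 5 thioesterases kept, Acot1 was 3.94-fold lower and Acot2 2.85-fold lower, and as near-identical copies they may share signal. Ucp3, a carrier of the inner mitochondrial membrane, had 6.57 in AAC, 10.70 in AAC + DAPA and 9.54 in sham.

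Of 24 peroxisome genes kept, 6 were lower and 1 higher with a median of -0.04. Pex11a, which drives the division of peroxisomes, had 5.48 in AAC, 6.42 in AAC + DAPA and 7.73 in sham, 4.76-fold lower in AAC. Ephx2, soluble epoxide hydrolase, was 3.92-fold lower, Mlycd, which degrades malonyl-CoA, 2.41-fold lower, and Ech1, an auxiliary enzyme for unsaturated chains, 2.36-fold lower. Abcd3, a fatty acid transporter of the peroxisome membrane, was 2.08-fold lower while its relative Abcd2 was 1.55-fold higher.

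Other fuels differed from fat. Of 20 genes for the degradation of branched-chain amino acids, 6 (30.0%) were higher and none was lower, and 17 had a difference above 0. The median was 0.35. Acadsb, the dehydrogenase for short branched chains, had 13.67 in AAC, 12.59 in AAC + DAPA and 11.86 in sham, 3.51-fold higher in AAC. Bckdhb, a subunit of the branched-chain keto acid dehydrogenase, had 12.75 in AAC and 11.42 in sham (2.51-fold), and Ppm1k, the phosphatase that switches this complex on, had 13.61 and 12.38 (2.35-fold). The enzymes at the committed step and its activator were thus on the higher side together. In the tricarboxylic acid cycle 1 of 20 genes was higher, Ogdhl (2.23-fold), a relative of oxoglutarate dehydrogenase, and none was lower. Of 18 glycolysis genes, 1 was higher and 2 lower with a median of 0.00. Pfkfb3, which makes the activator of phosphofructokinase, was 3.58-fold higher (7.30 in AAC and 5.46 in sham). Fbp2, the muscle fructose bisphosphatase that opposes it, was 8.82-fold lower (7.66 in AAC, 9.35 in AAC + DAPA and 10.80 in sham), and Pgam1, a phosphoglycerate mutase of glycolysis, 1.68-fold lower (7.18 in AAC and 7.93 in sham). Slc38a3, a glutamine transporter, was 8.40-fold lower and Slc41a3, a magnesium transporter, 5.98-fold lower. Over all 165 solute carriers kept, 11 (6.67%) were higher and 15 (9.09%) lower, close to the background.

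Genes for large protein complexes had medians a little under 0, and most members lay within 1.5-fold. Of 59 cytosolic ribosomal protein genes kept, 16 (27.1%) were lower, none was higher and 49 had a difference under 0, with a median of -0.33. Rpl35a had 8.05 in AAC, 9.60 in AAC + DAPA and 9.68 in sham, 3.10-fold lower in AAC. Rps19 was 2.20-fold lower. Mitochondrial ribosomal proteins had 9 of 74 lower and 1 higher (median -0.17), respiratory complex I 4 of 34 lower and none higher (median -0.21), and the proteasome 4 of 31 lower and none higher (median -0.16). In complex I, 29 of 34 genes were under 0, and Ndufb10, an accessory subunit, was 2.60-fold lower (10.38 in AAC and 11.76 in sham).

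Chaperones and tubulins had larger shares of lower genes. Of 23 heat shock proteins and cochaperones kept, 10 (43.5%) were lower and 1 was higher with a median of -0.43. Hsph1, a large HSP70 partner, had 10.09 in AAC, 10.54 in AAC + DAPA and 11.81 in sham, 3.29-fold lower in AAC. Stip1, the adaptor between HSP70 and HSP90, was 2.51-fold lower and Hspb1, a small heat shock protein, 2.22-fold lower. Hsp90b1, the HSP90 of the endoplasmic reticulum, was the higher one (1.72-fold). Among 20 genes of the unfolded protein and integrated stress responses only Mthfd2, a folate enzyme of mitochondria, was called, 2.79-fold lower. Alpha and beta tubulins, a family picked after its values were seen, had 8 of 11 genes lower and none higher with a median of -0.77. Tubb4b had 7.89 in AAC, 8.68 in AAC + DAPA and 10.33 in sham, 5.43-fold lower in AAC. Tuba4a, an alpha tubulin of striated muscle, had 13.23 in AAC, 13.74 in AAC + DAPA and 15.37 in sham, 4.41-fold lower. The antioxidant list had no common direction, with 4 of 30 higher, led by Gpx1 (2.30-fold), and 3 lower, led by Gpx3 (2.17-fold), 2 glutathione peroxidases.

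**Figure D3:**
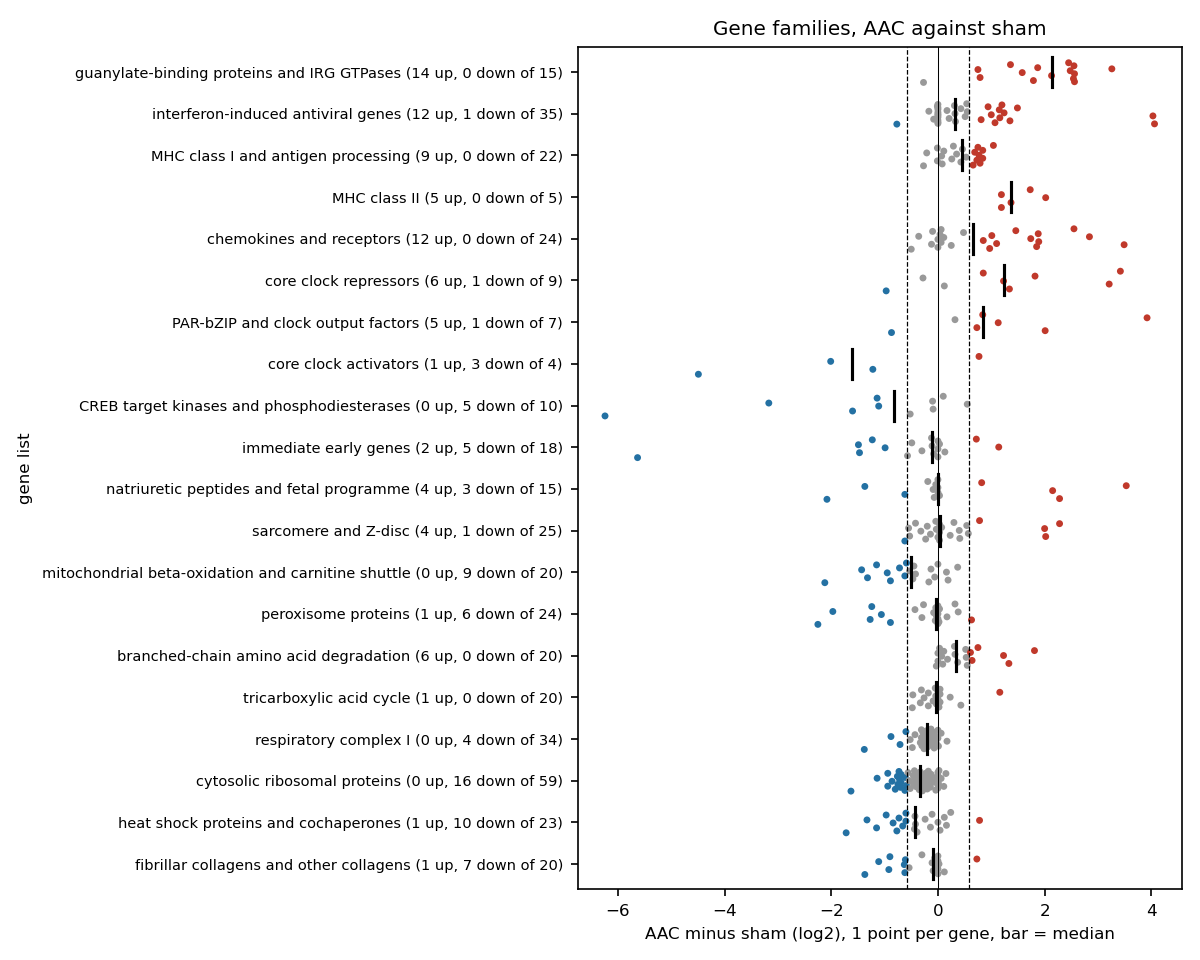
Difference between the AAC and sham arrays (AAC minus sham, log2) for each gene kept in 20 gene lists, with 1 point per gene, red for at least 1.5-fold higher in AAC, blue for at least 1.5-fold lower, a bar at the median and dashed lines at 1.5-fold. The guanylate-binding protein list, which also holds Irf1 and Cxcl9, has 14 of 15 genes in red, and beta-oxidation has 9 of 20 in blue and none in red.

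Collagen genes were not higher as a group in AAC. Of 20 collagen genes kept, 7 (35.0%) were lower and 1 higher with a median of -0.10, and 2 of the 7, Col14a1 and Col15a1, passed the level condition through the sham array alone. Col6a2, a chain of the beaded filament collagen, had 6.98 in AAC, 7.44 in AAC + DAPA and 8.35 in sham, 2.58-fold lower in AAC. Col3a1, a fibrillar collagen of the heart, had 9.14 in AAC, 8.62 in AAC + DAPA and 10.25 in sham, 2.16-fold lower. Col1a1, the main chain of scar collagen, had 6.11 on both the AAC and sham arrays, and Postn, a marker of activated fibroblasts, had 9.88 in AAC and 9.80 in sham. Among 23 proteoglycan and matricellular genes 5 were higher and 3 lower. Olfml2b had 5.29 in AAC, 4.75 in AAC + DAPA and 9.31 in sham, and passed the level condition through the sham array alone. Ccn2, connective tissue growth factor, was 1.95-fold higher (8.27 in AAC and 7.31 in sham), and Lum, lumican, 1.85-fold lower (12.68 and 13.57).

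Most genes of enzymes and signals that act on matrix lay within 1.5-fold. Of 18 matrix protease and inhibitor genes, 4 (22.2%) were higher and 2 (11.1%) lower, against 6.95% and 8.11% of all genes. Adamts20, 1 of the 4, passed the level condition through the AAC array alone. Adamts1, a protease that cuts proteoglycans, was 3.25-fold higher (7.89 in AAC and 6.19 in sham). TGF-beta and BMP signalling had 4 of 25 genes (16.0%) higher and none lower, led by Tgfbr3, a coreceptor (1.89-fold), with Tgfb2 1.60-fold higher. Of 18 integrins and laminins, Itga9 (2.5-fold), Itga7 (2.14-fold), the laminin receptor subunit of muscle, and Itgb7 were lower and Itga6 was 2.11-fold higher.

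Growth factor pathways held single large differences. Irs1, the docking protein of the insulin and IGF receptors, had 5.70 in AAC, 7.05 in AAC + DAPA and 8.25 in sham, 5.86-fold lower in AAC. Igf1, the growth factor itself, was 1.88-fold higher (11.18 in AAC and 10.27 in sham). Igfbp5, which binds it, was 2.10-fold lower. Ligand and docking protein thus stood on opposite sides. Among 20 genes of VEGF, angiopoietin and Notch signalling 4 were lower and 1 higher. Aplnr, the apelin receptor, was 2.20-fold lower, Angpt1, which steadies vessels, 1.89-fold lower, and Vegfa, the main vessel growth factor, 1.77-fold lower (14.41 in AAC, 13.90 in AAC + DAPA and 15.23 in sham).

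The interferon-gamma GTPases had the highest share of higher genes among the family lists with over 5 genes kept. These large and small GTPases are induced by interferon, gather on the vacuoles of intracellular microbes and are few in resting tissue. The list held 15 genes kept, 13 of them GTPases and the others Irf1 and Cxcl9, which interferon gamma also induces. In it, 14 genes (93.3%) were higher and none was lower, against 6.95% and 8.11% of all genes, and the median was 2.13. For the 13 GTPases alone, 12 were higher and the median was also 2.13. Tgtp2 had 12.91 in AAC, 10.46 in AAC + DAPA and 9.65 in sham, 9.58-fold higher in AAC, and shares sequence with a close copy. Gbp3 had 10.35 in AAC, 8.48 in AAC + DAPA and 7.79 in sham, 5.90-fold higher. Gbp7 had 12.44 in AAC, 10.51 in AAC + DAPA and 9.99 in sham, 5.46-fold higher. Iigp1, Gvin1, Gbp4 and Gbp2 were 4.38-fold to 5.90-fold higher, and Irgm1, which guards the cell's own membranes, was 2.57-fold higher (10.88 in AAC, 9.63 in AAC + DAPA and 9.52 in sham). Gbp8 was the exception, with 5.85 in AAC and 6.12 in sham. For 13 of the 14 higher genes the AAC + DAPA array lay nearer to sham.

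Promoter windows of 4 of these GTPases are shown as examples, in the same build and layout as above, and all 4 hold the letters marked. Capitals mark the letters GAAA, any 2 bases, GAAA, or their reverse complement, which resemble the interferon-stimulated response element (ISRE). Overlapping matches run into 1 stretch of capitals. Gbp3 lies at chr3:142559794-142560093 and Gbp7 at chr3:142530086-142530385, both on the plus strand, and Tgtp2 at chr11:49064163-49064462 and Irgm1 at chr11:48871371-48871670, both on the minus strand. Irgm1 was chosen after its values and its window were seen.
Gbp3: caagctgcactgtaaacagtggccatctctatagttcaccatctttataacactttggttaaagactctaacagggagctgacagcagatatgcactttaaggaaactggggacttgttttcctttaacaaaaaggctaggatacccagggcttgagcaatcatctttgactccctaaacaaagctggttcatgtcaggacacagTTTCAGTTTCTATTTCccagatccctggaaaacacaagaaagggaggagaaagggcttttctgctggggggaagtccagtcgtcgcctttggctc
Gbp7: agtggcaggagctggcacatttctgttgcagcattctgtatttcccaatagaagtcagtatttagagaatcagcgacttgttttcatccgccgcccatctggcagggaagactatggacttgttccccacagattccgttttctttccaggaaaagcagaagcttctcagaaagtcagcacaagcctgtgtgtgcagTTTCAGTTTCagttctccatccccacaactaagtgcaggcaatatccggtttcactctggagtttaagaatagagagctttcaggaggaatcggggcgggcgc
Tgtp2: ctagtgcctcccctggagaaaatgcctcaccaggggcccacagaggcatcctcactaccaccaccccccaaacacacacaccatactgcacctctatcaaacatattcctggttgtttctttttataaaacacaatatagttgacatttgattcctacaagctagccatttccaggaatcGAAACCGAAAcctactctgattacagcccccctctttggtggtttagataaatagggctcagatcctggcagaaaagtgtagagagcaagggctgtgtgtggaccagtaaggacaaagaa
Irgm1: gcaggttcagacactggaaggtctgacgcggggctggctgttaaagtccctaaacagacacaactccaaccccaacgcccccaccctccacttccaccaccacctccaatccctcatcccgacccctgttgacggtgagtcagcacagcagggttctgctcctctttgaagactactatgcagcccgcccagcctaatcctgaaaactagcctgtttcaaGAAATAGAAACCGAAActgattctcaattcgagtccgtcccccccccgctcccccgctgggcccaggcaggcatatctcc
The windows shown for Gbp3 and Irgm1 held 2 matches each and those for Gbp7 and Tgtp2 held 1 each. The other window of Gbp3 held none. Of the 10 genes of this list with a window in the table, 8 held the letters, against 3.99% of all 27025 genes of the table and 298 of 7831 members with a window. Among the higher members the share was 43 of 529 (8.13%), and among the lower members 22 of 636 (3.46%). Other higher genes lacked the letters. Isg20 and Ube2l6, at the head of the rises, held none in their windows, nor did Cxcl9, Cd274, Tap1 and Irf9. Rsad2 held 1. A match is not evidence that a factor was bound.

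Type I interferon genes were less even. Of 35 antiviral genes kept, 12 (34.3%) were higher and 1 was lower, with a median of 0.32, and 10 of 28 with a window held the ISRE-like letters. After Ube2l6 and Isg20 came Rsad2, which encodes viperin (8.26 in AAC, 7.34 in AAC + DAPA and 6.77 in sham, 2.81-fold), and Irf9, the DNA-binding part of the interferon factor (7.40, 6.60 and 6.05, 2.55-fold). Trim25, a ubiquitin ligase of RNA sensing, was the lower one. In 21 of the 35 genes the difference was above 0 and in 4 it was below. The other 10 had the same value on both arrays.

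Antigen presentation had higher genes and no lower ones in both classes. Of 22 genes of MHC class I and peptide processing, 9 (40.9%) were higher, none was lower and 13 lay within 1.5-fold, with a median of 0.45. Tap1, the peptide transporter, had 7.77 in AAC, 6.88 in AAC + DAPA and 6.73 in sham, 2.06-fold higher in AAC. B2m, the light chain of class I, was 1.79-fold higher and H2-K1, a heavy chain whose probes may also bind related H2 genes, 1.68-fold higher. H2-Q1, another of the 9, passed the level condition through the AAC array alone. In the class II list all 5 genes kept of 10 measured were higher, with a median of 1.37, or 1.01 over all 10. They were H2-Aa, H2-Ab1, H2-Eb1, H2-DMb1 and Ctss, the cathepsin S gene, which is also among the macrophage markers. H2-Aa had 11.56 in AAC, 9.43 in AAC + DAPA and 9.54 in sham, and H2-Ab1 11.21, 8.69 and 9.48. For all 5 the AAC + DAPA array lay below the sham array.

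Chemokine genes were called in the higher direction alone and complement genes in both directions. Of 24 chemokine and receptor genes kept, 12 were higher and none was lower, with a median of 0.67, which became 0.06 over all 57 genes with no level condition. Of the 12, Ccl12, Ccl8, Cxcl14 and Cxcr4 passed that condition through the AAC array alone. Cxcl9, which draws activated T cells, had 8.59 in AAC, 6.62 in AAC + DAPA and 6.04 in sham, 5.86-fold higher in AAC. Ccl8, a monocyte chemokine, had 5.90 in AAC, 4.06 in AAC + DAPA and 4.01 in sham, 3.71-fold higher. Ccl11, which draws eosinophils, was 2.75-fold higher. Ccl2, the best known monocyte chemokine, had 5.55 in AAC and 5.67 in sham. Ccl21a, Ccl21b and Ccl21c were 3.34-fold to 3.68-fold higher and, as near-identical copies, count as 1 signal. Among 14 complement genes 5 were higher and 1 lower. C3ar1, the receptor for the anaphylatoxin C3a, had 9.86 in AAC and 7.91 on each of the other arrays, 3.86-fold higher in AAC. C7, a part of the membrane attack complex, was 3.39-fold higher, and Cd55, which protects cells from complement, 1.81-fold lower.

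Markers of the cell types of the heart were counted in the same way. In whole-heart RNA, fewer cells of a type and less RNA per cell cannot be told apart. Of 17 macrophage and monocyte markers kept, 10 (58.8%) were higher and none lower, with a median of 0.86. Their summed level, as log2, was 14.36 in AAC, 13.28 in AAC + DAPA and 13.32 in sham, a ratio of 2.07 between AAC and sham. Mrc1, the mannose receptor of resident macrophages, had 13.20 in AAC, 11.92 in AAC + DAPA and 11.80 in sham. Cd163, a scavenger receptor of macrophages, had 7.28, 6.38 and 6.42, and Csf1r, the receptor that keeps macrophages alive, 8.63, 7.79 and 7.62. For 9 of the 10 higher markers the AAC + DAPA array lay nearer to sham. Not all macrophage genes moved. Adgre1, which encodes F4/80, had 6.60 in AAC and 6.41 in sham, and Lyve1 had 9.49 and 9.39. Ptprc, the CD45 gene of all leukocytes, was 3.58-fold higher (8.54 in AAC and 6.70 in sham). The GTPases had a summed ratio of 5.28, and how far macrophages carried the interferon, MHC and chemokine genes was not tested.

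Receptors of myeloid cells, a family picked after its values were seen, were higher in all 6 members kept of 7. They were Fcgr1, Fcgr2b and Fcgr3, which bind antibody, and Lilr4b, Lilrb4a and Pirb, their inhibitory relatives. Fcgr1, also among the macrophage markers, passed the level condition through the AAC array alone. Fcgr2b had 9.50 in AAC, 6.89 in AAC + DAPA and 8.00 in sham, and Lilrb4a 11.08, 9.46 and 9.48. Among C-type lectins 4 of 16 were higher, led by Clec12a, a receptor of myeloid cells (3.56-fold). Clec4a2 and Clec4a3, also among the higher lectins, passed the level condition through the AAC array alone. Neutrophil markers were mostly below the level condition, and only 3 of 15 passed it. Retnlg had 5.77 in AAC and 3.57 in sham, S100a9 6.68 and 4.80, and Lcn2 9.12 and 7.91. Retnlg and S100a9 passed through the AAC array alone, where they are high. Over all 15 the median was 0.03. T and NK cell markers had 2 of 19 genes kept, neither called, and Cd3e had 3.99 in AAC and 3.87 in sham, both below the level condition. B cell markers had 3 of 11 kept, with Jchain, of plasma cells, 1.95-fold lower.

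Markers of red cells and of dividing cells were called in both directions. Only 4 of 8 autosomal red cell markers passed the level condition. Of 4 red cell markers kept, Bpgm, which makes the regulator of haemoglobin, was 3.68-fold higher, Car2, a carbonic anhydrase, 2.68-fold higher and Slc4a1, the band 3 anion exchanger, 2.60-fold higher (8.92 in AAC, 7.99 in AAC + DAPA and 7.54 in sham). Tfrc, the transferrin receptor of cells that take up iron, was 3.48-fold lower (11.46 in AAC, 10.33 in AAC + DAPA and 13.26 in sham). The median of the 4 was 1.40, whereas their summed level had a ratio of 0.40 between AAC and sham. Of 18 cell cycle genes kept, 6 were higher and 1 lower with a median of 0.20, but 4 of the 6 (Cenpe, E2f8, Kif11 and Nusap1) passed the level condition through the AAC array alone. Mki67, the proliferation marker, had 6.60 in AAC and 5.37 in sham, Nusap1, a spindle protein, 6.29 and 4.75, and Kif11, the spindle kinesin, 5.60 and 4.58. Pttg1, securin, was 3.14-fold lower and had 12.24 in AAC, 6.84 in AAC + DAPA and 13.89 in sham. The summed level of the 18 cell cycle genes had a ratio of 0.74 between AAC and sham.

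Fibroblast markers differed by count and by sum. Of 19 kept, 4 were lower and 1 higher with a median of -0.36, whereas their summed level, as log2, was 18.20 in AAC and 18.05 in sham, a ratio of 1.11. Dcn, decorin, the brightest of them, had 17.97 in AAC and 17.68 in sham. Meox1, 1 of the 4 lower markers, passed the level condition through the sham array alone. Htra3, a secreted protease, was 2.30-fold lower (8.44 in AAC, 9.85 in AAC + DAPA and 9.64 in sham), and Dpep1, a membrane dipeptidase, 1.68-fold higher. Ventricular cardiomyocyte markers had 3 of 20 higher and 1 lower with a median of 0.00, and Tnni3, cardiac troponin I, had 17.55 on each array. Of 9 atrial markers kept only Nppa was called. Myl4, the atrial light chain, had 7.13 in both AAC and sham, Sln, sarcolipin of the atrium, 5.21 and 5.40, and Myl7 lay below the level condition with 3.30 and 3.54. The rise of Nppa thus came without a rise in these other atrial genes.

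In vessels, the endothelial markers were level, with 1 of 17 higher, Ly6c1 (1.83-fold), none lower and a median of -0.01. Smooth muscle markers split gene by gene. While Acta2 was 36-fold lower, Tagln, another actin-bound protein of smooth muscle, had 7.27 in AAC and 7.34 in sham, Myh11, the smooth muscle myosin, was 1.88-fold higher (5.56 and 4.65) but passed the level condition through the AAC array alone, and Myocd, the factor that switches these genes on, was 1.84-fold lower (8.62 and 9.50). Cnn1 and Lmod1 had the same value on both arrays, below the level condition. Pericyte markers had 1 higher, Rgs5, and 1 lower, Vtn, of 10. Cytl1, a cytokine of the endocardium, was 3.84-fold lower (8.51 in AAC, 9.20 in AAC + DAPA and 10.45 in sham), the only one of 6 endocardial markers called. Of 7 lymphatic markers 2 were higher, Ccl21a and Mmrn1, and 1 was lower, Fxyd6.

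Several markers of neighbouring tissues were low on both arrays, but not all. The level condition was passed by 7 of 16 adipocyte, 7 of 20 skeletal muscle, 2 of 15 liver and 1 of 12 lung markers. The lung marker had 11.93 in AAC and 12.44 in sham. Some listed genes are also markers of heart cells, such as Ckm in the skeletal muscle list. A kept marker thus need not come from a neighbouring tissue. Among these kept markers 1 adipocyte and 1 skeletal muscle gene (Acta1) were lower and none was higher. Of the adipocyte genes, Adipoq had 2.89 in AAC and 3.33 in sham, and Plin1 3.28 and 3.29, all below the level condition. Alb, of liver, had 4.21 in AAC and 4.11 in sham, Sftpc, of lung, 3.32 on each, and Myh4, of skeletal muscle, 4.59 and 4.33. Dct was the exception among pigment cell genes, with 5.13 in AAC, 5.92 in AAC + DAPA and 8.97 in sham. Tyr, Tyrp1 and Pmel, which pigment cells also use, had 3.0, 3.42 and 3.95 in AAC and 2.87, 3.60 and 3.85 in sham, and Mitf, their regulator but also a gene of other cells, was 2.0-fold higher in AAC.

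**Figure D4:**
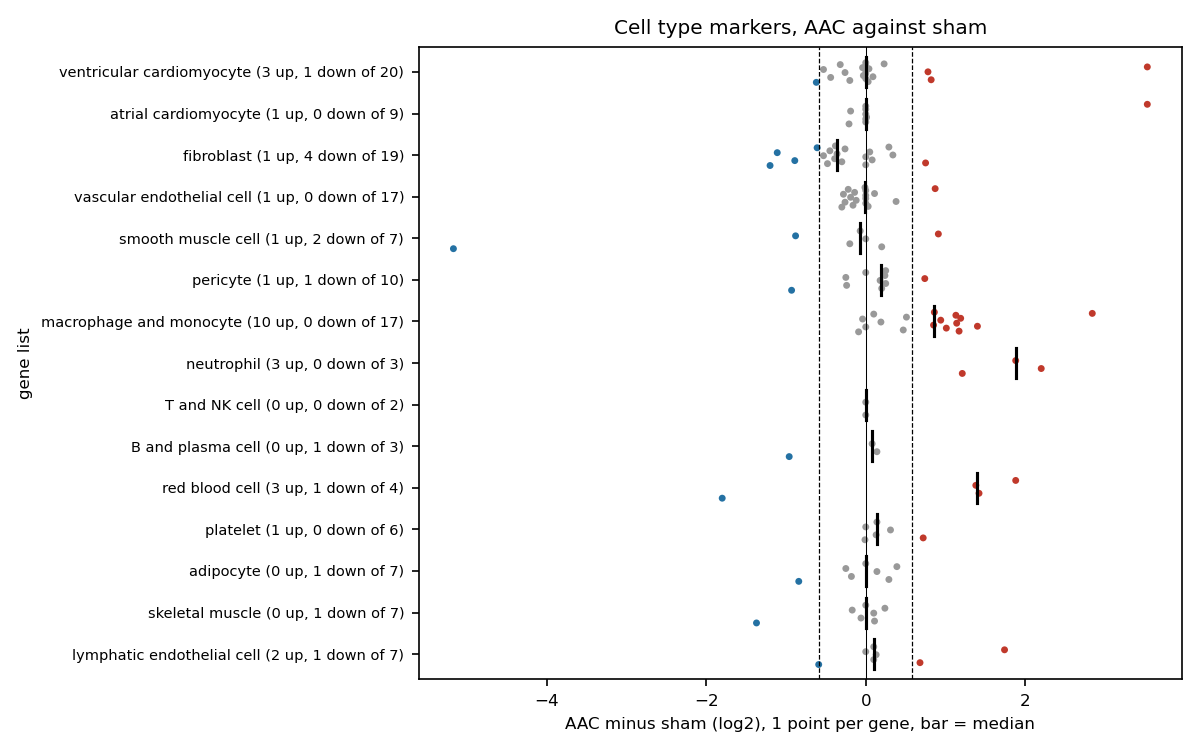
Difference between the AAC and sham arrays (AAC minus sham, log2) for the markers kept in 15 cell types, with 1 point per gene, red for at least 1.5-fold higher in AAC, blue for at least 1.5-fold lower, a bar at the median and dashed lines at 1.5-fold. Macrophage markers have 10 of 17 in red and none in blue, and Acta2 stands alone at the far left of the smooth muscle row.

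All genes were also grouped by symbol root, which brought up some families outside the gene lists. Besides phosphodiesterases, the roots with the highest shares of lower genes were collagens (7 of 20), DEAH-box helicases (4 of 13, 30.8%) and ribosomal proteins of the large (10 of 37, 27.0%) and small (6 of 27, 22.2%) subunit. The highest shares of higher genes were held by CC chemokine ligands (6 of 13, 46.2%), Stk kinases (4 of 12, 33.3%), tetraspanins (4 of 12, 33.3%), Parp genes of ADP-ribosylation (3 of 11, 27.3%), C-type lectins (25.0%) and kinesins (4 of 16, 25.0%). Of these higher genes, Ccl8, Ccl12, Stk10, Stk19, Clec4a2, Clec4a3, Kif11 and Kif18b passed the level condition through the AAC array alone. The CC chemokine count also holds Ccl21a, Ccl21b and Ccl21c, which count as 1 signal. Centrosomal Cep genes had 6 of 28 higher and 1 lower. Zinc finger Zfp genes, the widest root, had 11 of 249 higher and 11 lower (4.42% each), both under the background, and 3 of 41 histone genes were lower and 1 higher. Along the genome the shares of higher genes ran between 4.09% on chromosome 8 and 11.1% on chromosome 12, and those of lower genes between 4.56% on chromosome 12 and 10.8% on chromosome 11.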

How the data were processed

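For 3 arrays of mouse heart RNA the deposited values are on a log2 scale, given to 2 decimals for each probe, and were normalized by the authors before deposit. Affymetrix Expression Console is the tool in the submitters' processing notes. The methods name a PrimeView array and an Agilent protocol, whereas the probes name mouse genes, and how probes were summarised and scaled was not stated. With 1 array a group the precision is limited by the number of arrays, and no comparison between hearts could be tested. All 3 columns were assigned to groups from their titles and labels, and 0 were left unassigned.

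Of 22206 probes, 19572 had 1 gene symbol in the platform annotation, 2634 had none and 0 had several. All 19505 gene identifiers were found in the RefSeq table, from which chromosomes were taken. Probes of a gene were averaged, genes of X and Y were left out, and genes were kept when the higher of the AAC and sham values exceeded the median over all probes of that array (5.30 for AAC and 5.24 for sham). AAC minus sham was then counted at 1.5-fold, the threshold of the study, and folds are 2 to the power of that difference. Gene families and cell type markers formed 73 lists (49 and 24), each described by its counts and median beside those of all genes kept. Genes named were the 20 largest rises and falls and, in each list, the 5 or fewer members that differed most, and genes outside this rule were chosen after their values were seen. The members, the lists and the rule were chosen with earlier results of these data known. Symbol roots of at least 3 letters with at least 10 genes kept were counted likewise. Promoter windows of 300 bases (GRCm38.p6) were searched for fixed letters on both strands.

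The alternatives tried were quantile normalization, centring on the array median, the single brightest probe of a gene, 3 other level conditions and a threshold of 2-fold. The functions were tested on simulated data with 200 changed genes. Some genes are not reported here. Python 3.11.15 was used, with matplotlib 3.10.9, numpy 2.4.6 and pandas 2.3.3.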

Additional observations from a re-analysis of the deposited data

Results flagged for a closer look

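The Y chromosome, which the comparison of autosomal genes leaves out, carried a signal on 1 array. Of its 32 genes, 22 passed the level condition, and for all 22 the AAC value exceeded the sham value by 1.5-fold or more. Kdm5d, a histone demethylase gene, had 6.39 in AAC, 2.81 in AAC + DAPA and 2.97 in sham, while its X-linked relative Kdm5c had 7.02, 8.53 and 8.80. All 3 samples are labelled male. The part of sex in the autosomal differences was not tested.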

How the results depend on the processing

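At a threshold of 2-fold, 227 genes were higher and 196 lower in AAC, against 671 and 783 at 1.5-fold. The other alternatives kept both counts within 1.5 times. Centring the arrays gave 570 higher and 904 lower genes (38.7% of the called genes higher, against 46.1%), with a median over all genes of -0.06. Quantile normalization gave 656 and 785, the probe with the highest mean 671 and 787, a level above the 25th percentile 861 and 891, no level condition 898 and 908, and both arrays above the median 574 and 706. Across centring, quantile normalization and the choice of probe, all 326 named genes kept their direction, and 10, 4 and 0 of them crossed 1.5-fold. The medians of 73 lists moved by less than 0.283 in these 3 settings. With no level condition 10 of 73 moved further. They became -1.18 for clock activators, -0.52 for CREB genes, 1.01 for MHC class II, 0.06 for chemokines, 0.05 for C57BL/6 substrain genes, 0.03 for neutrophils, 0.28 for red cells, and 0.00 for mesothelium, valve and lung markers. The cause of these moves was not tested. No paired analysis was possible because each group has 1 array.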
